A study of Mus musculus with 6 samples.

Results

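The genes described here are the mouse zinc-finger genes named Zfp and a number, in embryonic stem cells with the R153A form or the wild-type form of the pluripotency factor NANOG. They were chosen as the symbols made of Zfp and digits, without Zfp42, Zfp57, Zfp281 and Zfp352, with an FPKM of at least 1 in 3 or more of 6 libraries. FPKM is an expression level corrected for the length of the gene and for the number of fragments in each library. Of 329 such symbols 261 passed, out of 24083 genes in the table and 11817 genes that passed the same rule. The study sequenced polyadenylated RNA from 3 libraries labelled R153A by genotype and 3 libraries labelled wild type (WT). All 6 came from mouse embryonic stem cells kept on gelatin in serum medium with LIF, with no other treatment. The sources used here do not give how R153A was introduced, whether a line was 1 clone or whether the 3 libraries per genotype were separate cultures, so p-values measure the spread between these libraries, which may be technical.

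Most mouse Zfp genes encode proteins with arrays of C2H2 zinc fingers, small folds held by a zinc ion that read DNA bases. Many also carry a KRAB domain, which recruits the corepressor TRIM28 and through it the histone methyltransferase SETDB1 and HP1 proteins, and in embryonic stem cells this machinery silences retroelements and guards imprints. KRAB genes lie in tandem clusters that expanded by duplication. Other Zfp genes encode promoter-binding activators, chromatin adaptors, RNA-binding proteins or ubiquitin ligases and share little beyond the name.

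The FPKM values summed to between 372761 and 382086 in the R153A libraries and between 360152 and 381782 in the WT libraries, and the depth behind them was unknown. At 1 FPKM or more stood 11642 to 11759 genes in R153A and 11147 to 11257 genes in WT. Nanog mRNA stood at 119, 122 and 129 FPKM in R153A, against 241, 259 and 258 FPKM in WT. An mRNA level does not show which amino acid the protein carries. All 8 embryonic stem cell markers passed the FPKM rule in both groups, with sums of 2277 to 2379 FPKM in R153A and 4237 to 4992 FPKM in WT, and 6 fell. Of other cell types, 4 of 10 fibroblast or feeder markers were tested and 2 rose, with sums of 11.1 to 11.9 FPKM in R153A and 7.82 to 8.81 FPKM in WT, while Col3a1, Lum, Dcn, Postn, Pdgfrb and Twist2 stayed under 1 FPKM throughout. Sums of the 6 trophectoderm markers were 364 to 399 FPKM in R153A and 93.1 to 104.7 FPKM in WT, with Gata3 and Elf5 under 1 FPKM. The 7 primitive streak markers summed to 14.3 to 17.7 FPKM in R153A and 3.83 to 5.29 FPKM in WT, with Mixl1, Mesp1 and Gsc under 1 FPKM. For the 7 primitive endoderm markers the sums were 5.71 to 6.46 FPKM in R153A and 3.43 to 4.65 FPKM in WT, with Gata6, Sox17, Dab2 and Pdgfra under 1 FPKM, and for the 5 neuroectoderm markers 38.0 to 40.3 FPKM in R153A and 50.3 to 59.8 FPKM in WT, with Sox1 and Pax6 under 1 FPKM. Of the tested markers in these last 4 lists, 3 trophectoderm, 3 streak, 1 endoderm and 1 neuroectoderm marker rose, and 1, 1, 1 and 2 fell. No listed marker was at 0 in all libraries. The part of such markers in the results below was not tested. In bulk RNA, fewer cells of a type and less RNA per cell cannot be told apart.

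The Zfp genes mostly moved little between R153A and WT, and with FPKM as deposited more of those that moved were higher in R153A, a balance that turned under quantile normalization and after a GC and length correction. On the scale log2(FPKM + 1), the median log2 fold change (R153A minus WT) of the 261 genes was 0.13, against 0.07 over all 11817 genes tested. The quartiles of the members lay at -0.07 and 0.28. By limma, a linear model with moderated variances, and Benjamini-Hochberg adjustment over all genes tested, 98 members rose and 37 fell at an adjusted p under 0.05, and 126 did not pass. The 98 rises are 37.5% of the members, the same as the background share of 37.5% of all genes tested. The 37 falls are 14.2%, where the background is 22.3%. In all, 51.7% of the members were called, against a background of 59.8%.

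Large changes were few. A called change of at least 2-fold on the log2(FPKM + 1) scale was found for 4 members that rose (background 5.98%) and 2 that fell (background 2.31%). This scale understates changes of genes near 1 FPKM. In mean FPKM further called members passed 2-fold, among them Zfp629 (4.41-fold) and Zfp651 (3.91-fold) upward and Zfp819 (2.28-fold) and Zfp710 (2.01-fold) downward. Zfp629 and Zfp651 passed the FPKM rule through R153A alone. A log2 fold change of 0.5 or more in size was seen in 12.3% of the members and in 24.4% of all genes tested. The 3 R153A values lay wholly above or wholly below the 3 WT values in 145 members (55.6%), where the background is 65.0%. No test of the members against other genes was made, so these shares are descriptions.

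**Figure D1:**
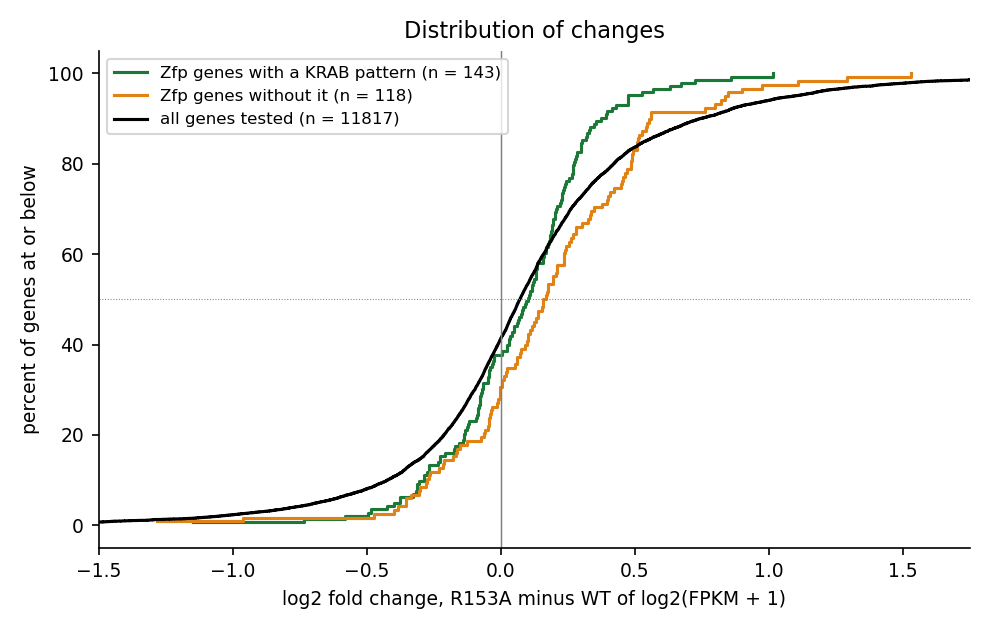
Cumulative share of genes (vertical axis, percent) by log2 fold change, R153A minus WT of log2(FPKM + 1) (horizontal axis), for 143 Zfp genes with a KRAB pattern (green), 118 without it (orange) and all 11817 genes tested (black). The KRAB curve has quartiles of -0.08 and 0.24, the other Zfp curve -0.04 and 0.44 and the curve of all genes -0.15 and 0.33, with medians of 0.10, 0.16 and 0.07.

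The split between rises and falls depended on how the libraries were scaled. Of the member calls 72.6% were rises with FPKM as deposited (98 and 37), 68.9% after rescaling to TPM (91 and 41), 59.8% under median-ratio scaling (76 and 51), 47.7% after a correction for GC content and transcript length (62 and 68) and 36.8% under quantile normalization (46 and 79). The same settings moved all genes, whose calls were 62.7% rises as deposited, 58.9% after rescaling to TPM, 50.7% under median-ratio scaling, 44.8% after the GC and length correction and 47.4% under quantile normalization. The GC and length correction shifted the median of all genes by -0.11. Relative to that of all genes, the members' median was 0.05 higher as deposited, 0.06 higher under median-ratio scaling, and 0.07 higher after the correction, and under quantile normalization the difference was -0.02. All 37 falls were called again under each of these scalings, and 46 to 91 of the 98 rises were.

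The promoters below belong to members that changed at least 2-fold on the log2(FPKM + 1) scale. Zfp296 and Zfp459 are the 2 that fell so far, and Zfp365 and Zfp334 rose. No window is printed for Zfp608 and Zfp362, which also rose at least 2-fold on this scale. They are RefSeq windows on build GRCm38.p6, from 250 bases before to 50 bases after the annotated start, 5′ to 3′ on the strand of the gene, with the letters TAAT or ATTA, the core that homeodomain proteins bind on either strand, in capitals. RefSeq windows were matched for 217 members.
Zfp296: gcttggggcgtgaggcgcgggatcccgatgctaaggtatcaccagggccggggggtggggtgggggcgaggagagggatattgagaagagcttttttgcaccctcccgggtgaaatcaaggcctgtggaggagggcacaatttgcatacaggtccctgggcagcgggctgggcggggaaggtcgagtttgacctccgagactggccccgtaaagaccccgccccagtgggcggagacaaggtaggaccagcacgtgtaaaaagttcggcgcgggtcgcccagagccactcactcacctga
Zfp459: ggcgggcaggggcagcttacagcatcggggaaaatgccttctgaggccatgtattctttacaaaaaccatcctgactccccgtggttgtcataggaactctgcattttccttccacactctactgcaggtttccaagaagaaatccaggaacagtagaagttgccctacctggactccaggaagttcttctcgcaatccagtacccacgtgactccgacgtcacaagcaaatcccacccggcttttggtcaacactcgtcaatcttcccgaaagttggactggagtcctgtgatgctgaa
Zfp365: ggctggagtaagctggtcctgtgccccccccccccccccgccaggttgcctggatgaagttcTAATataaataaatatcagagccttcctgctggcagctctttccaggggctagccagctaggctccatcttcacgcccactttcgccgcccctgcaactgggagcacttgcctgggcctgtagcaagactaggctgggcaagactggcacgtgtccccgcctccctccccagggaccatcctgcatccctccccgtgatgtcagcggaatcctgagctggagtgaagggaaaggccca
Zfp334: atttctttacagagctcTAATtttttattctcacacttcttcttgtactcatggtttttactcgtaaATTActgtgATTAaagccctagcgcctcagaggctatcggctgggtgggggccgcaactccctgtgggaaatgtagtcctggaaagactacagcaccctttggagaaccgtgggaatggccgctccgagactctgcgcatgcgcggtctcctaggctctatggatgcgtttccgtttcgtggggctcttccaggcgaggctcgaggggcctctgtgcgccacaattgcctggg

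The Zfp296 window lies at chr7:19577037-19577336, plus strand, and the Zfp459 window at chr13:67421369-67421668, minus strand. Neither held the core. The Zfp365 window, at chr10:67912613-67912912, minus strand, held it once, and the Zfp334 window, at chr2:165388210-165388509, minus strand, 3 times. The other large changes with a matched window, not printed, were mixed. Among falls, the windows of Zfp710, Zfp819, Zfp229, Zfp59, Zfp382, Zfp277 and Zfp715 held the core and that of Zfp553 did not. Among rises, those of Zfp65, Zfp867 and Zfp946 held it and those of Zfp358, Zfp768, Zfp644 and Zfp36 did not. TAAT on either strand was found in 58.3% of 27025 promoters of this length, in 49.8% of the 217 matched members, in 49.4% of the 79 matched members that rose and in 44.8% of the 29 that fell. The members' windows had a median of 15 CG dinucleotides, against 7 over all promoters. These matches describe the letters of the windows and do not show binding.

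The largest rise was that of Zfp608, a gene close in sequence to Zfp609. Zfp608 stood at 2.87, 2.704 and 2.85 FPKM in the R153A libraries, against 0.305, 0.354 and 0.301 FPKM in the WT libraries (log2 fold change 1.53, SE 0.0760, limma adjusted p = 2.8e-08). Its R153A mean was 8.78-fold that of WT, and it passed the FPKM rule through the R153A libraries alone, so its rise decided that it was counted. Zfp365, whose human counterpart encodes a centrosomal protein, stood at 7.06, 6.90 and 6.64 FPKM in the R153A libraries, against 2.09, 2.71 and 1.88 FPKM in the WT libraries (log2 fold change 1.29, SE 0.0945, limma adjusted p = 5.6e-07). All 3 R153A values lay at least 3 FPKM above every WT value, and the mean was 3.08-fold that of WT. Zfp362 stood at 3.43, 2.95 and 3.21 FPKM in R153A, against 0.760, 1.02 and 1.07 FPKM in WT, a 3.37-fold higher mean (log2 fold change 1.11, SE 0.0895, limma adjusted p = 1.2e-06). Zfp334, a KRAB gene, stood at 4.18, 3.93 and 3.86 FPKM in R153A, against 1.83, 1.403 and 1.21 FPKM in WT, a 2.697-fold higher mean (log2 fold change 1.02, SE 0.0963, limma adjusted p = 4.3e-06). In these 4 genes the groups did not overlap, and the R153A libraries were close to each other.

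The next 8 rises, among members averaging 2 FPKM or more in R153A, lay below 2-fold on the log2(FPKM + 1) scale, which understates the change of genes near 1 FPKM. Zfp358 averaged 4.88 ± 0.421 FPKM in R153A and 2.14 ± 0.152 FPKM in WT (SD, n = 3 each), a 2.27-fold higher mean, and Zfp251, a KRAB gene, averaged 4.28 ± 0.285 FPKM in R153A and 1.91 ± 0.206 FPKM in WT, 2.24-fold higher. Zfp768 averaged 2.404 ± 0.188 FPKM in R153A and 0.896 ± 0.214 FPKM in WT, 2.68-fold higher. Zfp644, a partner of the histone methyltransferases G9a and GLP, stood at 8.18, 7.63 and 8.65 FPKM in R153A, against 4.21, 4.57 and 3.604 FPKM in WT (log2 fold change 0.84, SE 0.08403, limma adjusted p = 6.8e-06). Zfp36, which encodes tristetraprolin, a CCCH-type protein that binds AU-rich elements and speeds mRNA decay, stood at 17.4, 16.4 and 19.2 FPKM in R153A, against 9.73, 9.78 and 9.597 FPKM in WT (log2 fold change 0.80, SE 0.0645, limma adjusted p = 1.2e-06). It was the most abundant of the 12 rises. The KRAB genes Zfp65, Zfp867 and Zfp946 rose 1.94-fold, 1.93-fold and 1.82-fold in mean FPKM, with R153A means of 4.204, 3.45 and 3.71 FPKM and WT means of 2.17, 1.79 and 2.04 FPKM. Limma adjusted p-values of these 8 genes lay between 1.2e-06 for Zfp36 and 1.2e-04 for Zfp867.

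**Figure D2:**
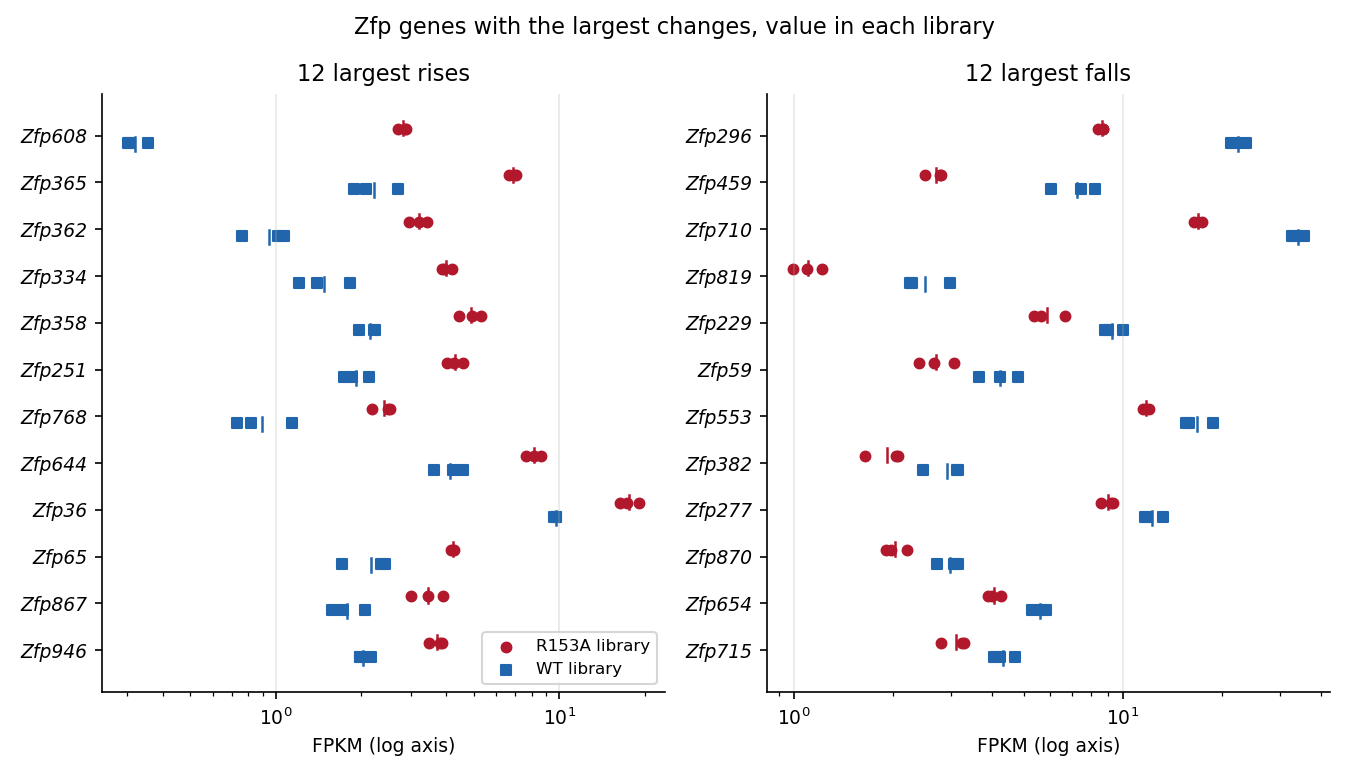
FPKM (log axis) in each R153A library (red circles) and each WT library (blue squares) for the 12 largest rises (left) and 12 largest falls (right) among called Zfp genes whose groups were apart and whose higher group averaged 2 FPKM or more. Short bars mark group means, and in every gene shown the R153A points lie on one side of the WT points, as the rule for choosing them required.

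The largest fall was that of Zfp296, a zinc-finger gene of pluripotent and germ cells whose protein binds KLF4 and aids reprogramming. Zfp296 stood at 8.44, 8.72 and 8.71 FPKM in the R153A libraries, against 22.2, 23.7 and 21.4 FPKM in the WT libraries (log2 fold change -1.28, SE 0.0583, limma adjusted p = 1.4e-08), and its R153A mean was 2.601-fold lower. The R153A libraries spanned less than 1 FPKM. Zfp459, a KRAB gene of the chromosome 13 cluster, stood at 2.78, 2.51 and 2.81 FPKM in the R153A libraries, against 7.46, 8.24 and 6.05 FPKM in the WT libraries, a 2.69-fold lower mean (log2 fold change -1.15, SE 0.09798, limma adjusted p = 1.9e-06). Zfp710 stood at 16.5, 16.97 and 17.4 FPKM in the R153A libraries, against 33.6, 35.6 and 32.8 FPKM in the WT libraries, a 2.01-fold lower mean (log2 fold change -0.96, SE 0.0527, limma adjusted p = 5.8e-08). With a WT mean of 34.01 FPKM it was the most abundant member among the 12 falls. Zfp819, a KRAB gene whose protein binds TRIM28 in embryonic stem cells, stood at 0.991, 1.22 and 1.095 FPKM in R153A, against 2.29, 2.99 and 2.25 FPKM in WT, a 2.28-fold lower mean (log2 fold change -0.73, SE 0.0972, limma adjusted p = 6.4e-05).

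The other 8 of the 12 falls were smaller. Zfp229 averaged 5.896 ± 0.696 FPKM in R153A and 9.29 ± 0.606 FPKM in WT (SD, n = 3 each), a 1.58-fold lower mean. Zfp59 averaged 2.71 ± 0.336 FPKM in R153A and 4.23 ± 0.5805 FPKM in WT, 1.56-fold lower. Zfp553 stood at 11.5, 12.02 and 11.8 FPKM in R153A, against 15.9, 18.8 and 15.6 FPKM in WT, and Zfp277, which in mouse fibroblasts binds the Polycomb protein BMI1, at 9.33, 8.57 and 9.23 FPKM in R153A, against 11.7, 11.8 and 13.2 FPKM in WT. In both genes every R153A value lay below every WT value. Zfp382, Zfp870, Zfp654 and Zfp715 had means 1.52-fold, 1.47-fold, 1.38-fold and 1.395-fold lower in R153A, from WT means between 2.92 FPKM for Zfp382 and 5.59 FPKM for Zfp654. Limma adjusted p-values of these 8 genes ran up to 0.00315 for Zfp382. All 24 of the largest rises and falls kept their direction and call in every alternative that tested them.

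Among 9 Zfp genes linked to embryonic stem cells, 7 were members, of which 4 fell, none rose and 3 did not pass, with a median log2 fold change of -0.18. The background over all genes tested was 22.3% falls and 37.5% rises, and the list is too short to be read against it. Besides Zfp296 and Zfp819, Zfp706, whose loss delays exit from self-renewal in mouse cells, stood at 23.98, 22.1 and 23.5 FPKM in R153A, against 28.2, 29.98 and 28.02 FPKM in WT (log2 fold change -0.30, SE 0.05404, limma adjusted p = 6.2e-04). The groups did not overlap. Zfp217, whose protein sequesters the m6A methyltransferase METTL3 in mouse embryonic stem cells, stood at 12.3, 11.7 and 11.8 FPKM in R153A, against 12.9, 14.6 and 13.1 FPKM in WT (log2 fold change -0.17, SE 0.0626, limma adjusted p = 0.0396). That call ended in 6 alternatives, among them no filter on low values (adjusted p = 0.0771) and fits without R153A replicate 1 (0.0668), R153A replicate 2 (0.102), R153A replicate 3 (0.102) or WT replicate 2 (0.0969). Zfp143, a promoter activator reported to act on Nanog, stood at 9.81, 8.44 and 8.56 FPKM in R153A, against 10.6, 9.28 and 10.9 FPKM in WT and did not pass (limma adjusted p = 0.0691). It was called lower under 6 alternatives, such as median-ratio scaling (adjusted p = 0.0209). Zfp462, a partner of heterochromatin methyltransferases, averaged 13.0 ± 0.379 FPKM in R153A and 13.4 ± 1.46 FPKM in WT, and Zfp207, a spindle assembly and splicing factor, averaged 69.7 ± 2.503 FPKM in R153A and 66.8 ± 4.96 FPKM in WT. Both had overlapping groups and did not pass, although Zfp462 was called lower after the GC and length correction (log2 fold change -0.25, adjusted p = 0.00257, against -0.04 as deposited). Zfp521, a neural regulator, did not reach the FPKM rule, at 0.258, 0.218 and 0.272 FPKM in R153A, against 0.1496, 0.153 and 0.1996 FPKM in WT, and Zfp982 was not analysed here.

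Of 6 KRAB genes with known retroelement or imprinting targets, Zfp819 fell, Zfp445 rose and 4 did not pass, so 33.3% were called where the background is 59.8%. Zfp445, which with Zfp57 protects genomic imprints, stood at 20.2, 17.2 and 20.02 FPKM in R153A, against 15.6, 16.97 and 15.8 FPKM in WT (log2 fold change 0.23, SE 0.0696, limma adjusted p = 0.0142), a call lost in 5 alternatives, with the log2 fold change at 0.11 and the highest adjusted p, 0.0971, after the GC and length correction. They included leaving out R153A replicate 1 (0.0657), R153A replicate 3 (0.0603) or WT replicate 1 (0.0501). Zfp809, which recognizes the proline tRNA primer binding site of murine retroviruses, stood at 9.04, 9.73 and 9.79 FPKM in R153A, against 9.57, 12.2 and 8.86 FPKM in WT. Zfp568, a repressor of a placental Igf2 transcript, stood at 22.3, 22.4 and 23.7 FPKM in R153A, against 23.7, 26.5 and 20.9 FPKM in WT. Their groups overlapped, with log2 fold changes of -0.08 for Zfp809 and -0.05 for Zfp568, and Zfp568 was called lower after the GC and length correction (-0.18, adjusted p = 0.0245). Zfp932 averaged 7.57 ± 0.412 FPKM in R153A and 7.12 ± 0.596 FPKM in WT and Zfp708 1.21 ± 0.213 FPKM in R153A and 1.29 ± 0.327 FPKM in WT, again with overlapping groups, and Zfp708 was called lower under quantile normalization (log2 fold change -0.32, adjusted p = 0.0442).

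Among 15 chromatin and promoter factors 13 were members, of which with FPKM as deposited 6 rose, none fell and 7 did not pass, where the background is 37.5% rises and 22.3% falls. After the GC and length correction 5 of those 7, Zfp64, Zfp143, Zfp148, Zfp335 and Zfp652, were called lower. With that correction 4236 of all 11817 genes tested were called lower and 3433 higher. Zfp644 led, followed by Zfp609, a NIPBL and Integrator partner in neural progenitors, at 16.1, 15.6 and 15.9 FPKM in R153A, against 10.5, 10.8 and 10.4 FPKM in WT (log2 fold change 0.55, SE 0.0535, limma adjusted p = 5.6e-06). Zfp687, a subunit of a complex with ZMYND8 and the protein of Zfp592, stood at 15.8, 15.2 and 15.5 FPKM in R153A, against 10.1, 12.03 and 10.2 FPKM in WT (log2 fold change 0.49, SE 0.0697, limma adjusted p = 1.1e-04), while Zfp592 averaged 4.18 ± 0.0564 FPKM in R153A and 3.87 ± 0.285 FPKM in WT and did not pass (limma adjusted p = 0.2998). Zfp609 and Zfp687 had no overlap between groups, and their R153A means were 1.504-fold and 1.44-fold those of WT. Zfp410, an activator of the remodeller gene Chd4, stood at 7.41, 7.93 and 7.65 FPKM in R153A, against 6.399, 6.29 and 6.79 FPKM in WT (log2 fold change 0.21, SE 0.06396, limma adjusted p = 0.0152), and Chd4 itself at 88.7, 86.6 and 88.8 FPKM in R153A, against 74.3, 83.5 and 67.3 FPKM in WT (log2 fold change 0.23, SE 0.0687, limma adjusted p = 0.0127). The Zfp410 call ended under median-ratio scaling (adjusted p = 0.0796), quantile normalization (0.2201, log2 fold change 0.09), the GC and length correction (0.0525) and without R153A replicate 2 (0.0565). For Chd4 the alternatives were not examined, and a link between Zfp410 and Chd4 was not tested. Zfp219, a SOX9 partner, and Zfp423, a partner of EBF and SMAD factors, averaged 14.4 ± 1.58 FPKM in R153A and 11.7 ± 1.02 FPKM in WT and 3.06 ± 0.2396 FPKM in R153A and 2.398 ± 0.309 FPKM in WT. Their rises were small (log2 fold changes 0.28 and 0.26) and ended in 4 and 7 alternatives. For Zfp219 the log2 fold change was 0.04 after the GC and length correction (adjusted p = 0.595), and the call also ended on leaving out R153A replicate 1 (adjusted p = 0.0683) or WT replicate 1 (0.0609). For Zfp423 it was 0.06 after the correction (adjusted p = 0.464) and 0.06 under quantile normalization (adjusted p = 0.507). That call also ended on leaving out R153A replicate 1 (0.0849), R153A replicate 3 (0.0757), WT replicate 1 (0.0825) or WT replicate 3 (0.0742). Zfp64, Zfp148, Zfp335, Zfp652 and Zfp263 did not pass either, with log2 fold changes between -0.06 for Zfp148 and 0.08 for Zfp335 as deposited. After the GC and length correction these values were -0.23 for Zfp64 (adjusted p = 0.00242), -0.20 for Zfp148 (adjusted p = 0.0134), -0.19 for Zfp652 (adjusted p = 0.00482) and -0.16 for Zfp335 (adjusted p = 0.0464). Zfp148 was called lower under quantile normalization too (-0.23, adjusted p = 0.0102). Zfp503 and Zfp703 stayed under 1 FPKM in every library.

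Of 12 Zfp genes with roles in RNA, ribosomes or ubiquitin, 10 were members, of which 4 fell, 2 rose and 4 did not pass. The share called, 60.0%, was near the background of 59.8%. Zfp36 rose, as did Zfp830, a gene needed for splicing and early embryos, at 6.86, 6.03 and 6.51 FPKM in R153A, against 5.41, 4.76 and 4.97 FPKM in WT (log2 fold change 0.30, SE 0.0737, limma adjusted p = 0.00427). Its call ended under quantile normalization (log2 fold change 0.18, adjusted p = 0.0566). Zfp598, the ubiquitin ligase that marks collided ribosomes, stood at 33.3, 28.7 and 32.9 FPKM in R153A, against 35.3, 41.04 and 38.5 FPKM in WT (log2 fold change -0.27, SE 0.0713, limma adjusted p = 0.00744). Zfp106, an RNA-binding protein needed by motor neurons, stood at 45.2, 43.7 and 44.3 FPKM in R153A, against 51.1, 57.1 and 48.9 FPKM in WT (log2 fold change -0.23, SE 0.0594, limma adjusted p = 0.006204). In both genes the groups were apart, with means 1.21-fold and 1.18-fold lower, and both calls ended with no filter on low values (adjusted p = 0.0777 and 0.0505). Zfp593, a ribosome biogenesis factor, fell to 13.1 ± 0.644 FPKM in R153A, against 16.04 ± 1.04 FPKM in WT (SD, n = 3 each). Zfp346, which binds double-stranded RNA, fell to 9.87 ± 0.324 FPKM in R153A, against 11.6 ± 0.6797 FPKM in WT. Zfp207, Zfp622, Zfp91 and Zfp326 did not pass, although Zfp91 was called lower under quantile normalization (-0.14, adjusted p = 0.0474) and after the GC and length correction (-0.18, adjusted p = 0.00781). Zfp259 and Zfp638 were not analysed here.

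FPKM is per length, so levels of different genes can be set side by side. The mean over the 6 libraries ran between 0.879 and 68.3 FPKM with a median of 3.35 FPKM, against a median of 8.58 FPKM over all genes tested, and 66.3% of the members lay under 5 FPKM compared with 34.2% of all genes tested. Zfp207 was the highest member, with 66.9, 71.8 and 70.4 FPKM in the R153A libraries, against 63.4, 72.5 and 64.6 FPKM in the WT libraries. Zfp106, Zfp598, Zfp534, Zfp428, Zfp664, Zfp706, Zfp710, Zfp330 and Zfp622 followed by the mean over both groups. In this order the ranges over the 6 libraries were apart for Zfp207, Zfp106 and Zfp598 and overlapped between each later pair of neighbours, down to Zfp622 with a mean of 24.7 FPKM. The order differed between groups, since Zfp428 averaged 34.9 ± 1.999 FPKM in R153A and 24.1 ± 2.07 FPKM in WT, above Zfp598 and Zfp534 in R153A alone, and Zfp710 averaged 16.95 ± 0.453 FPKM in R153A and 34.01 ± 1.44 FPKM in WT, below Zfp622 in R153A alone. Zfp428 rose, at 36.6, 32.7 and 35.3 FPKM in R153A, against 22.97, 26.5 and 22.9 FPKM in WT (log2 fold change 0.51, SE 0.0675, limma adjusted p = 5.9e-05). Zfp534, the highest KRAB gene, stood at 32.2, 29.2 and 27.5 FPKM in R153A, against 35.5, 38.03 and 31.8 FPKM in WT (log2 fold change -0.24, SE 0.0743, limma adjusted p = 0.01796), with groups that overlapped, and its call ended in 4 alternatives. They included leaving out R153A replicate 3 (adjusted p = 0.0761), WT replicate 1 (0.0524) or WT replicate 2 (0.0759). Zfp664, Zfp330 and Zfp622 did not pass.

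The balance of rises and falls is given by level. Of 41 members with a mean of 10 FPKM or more, 12 rose and 14 fell, with a median log2 fold change of -0.03, where all 5389 genes at this level had 1812 rises, 1350 falls and a median of 0.03. Of 105 members at 2 to 5 FPKM, 45 rose and 12 fell, with a median of 0.18, where all 2401 genes at this level had 971 rises, 474 falls and a median of 0.13. Of the 47 members at 5 to 10 FPKM, 16 rose and 5 fell, with a median of 0.08, where all 2389 genes at this level had 885 rises, 505 falls and a median of 0.07. Of the 68 members under 2 FPKM, 25 rose and 6 fell, with a median of 0.16, where all 1638 genes at this level had 760 rises, 305 falls and a median of 0.21. Among these 68, the 6 that passed the FPKM rule through R153A alone all rose and the 2 through WT alone fell. Their direction was set by the rule. The summed FPKM of the 261 members was 1634, 1553 and 1632 in the R153A libraries, against 1496, 1622 and 1513 in the WT libraries, with overlapping groups (two-sided exact permutation p = 0.2, where 3 against 3 libraries cannot go below 0.1). The median member stood at 3.73, 3.41 and 3.72 FPKM in R153A, against 3.05, 3.23 and 3.08 FPKM in WT (exact permutation p = 0.1). Over all genes tested the median of group means was also higher in R153A, at 8.87 FPKM against 8.26 FPKM in WT. The members' share of the summed FPKM of each library averaged 0.426% in R153A and 0.417% in WT (exact permutation p = 0.7).

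**Figure D3:**
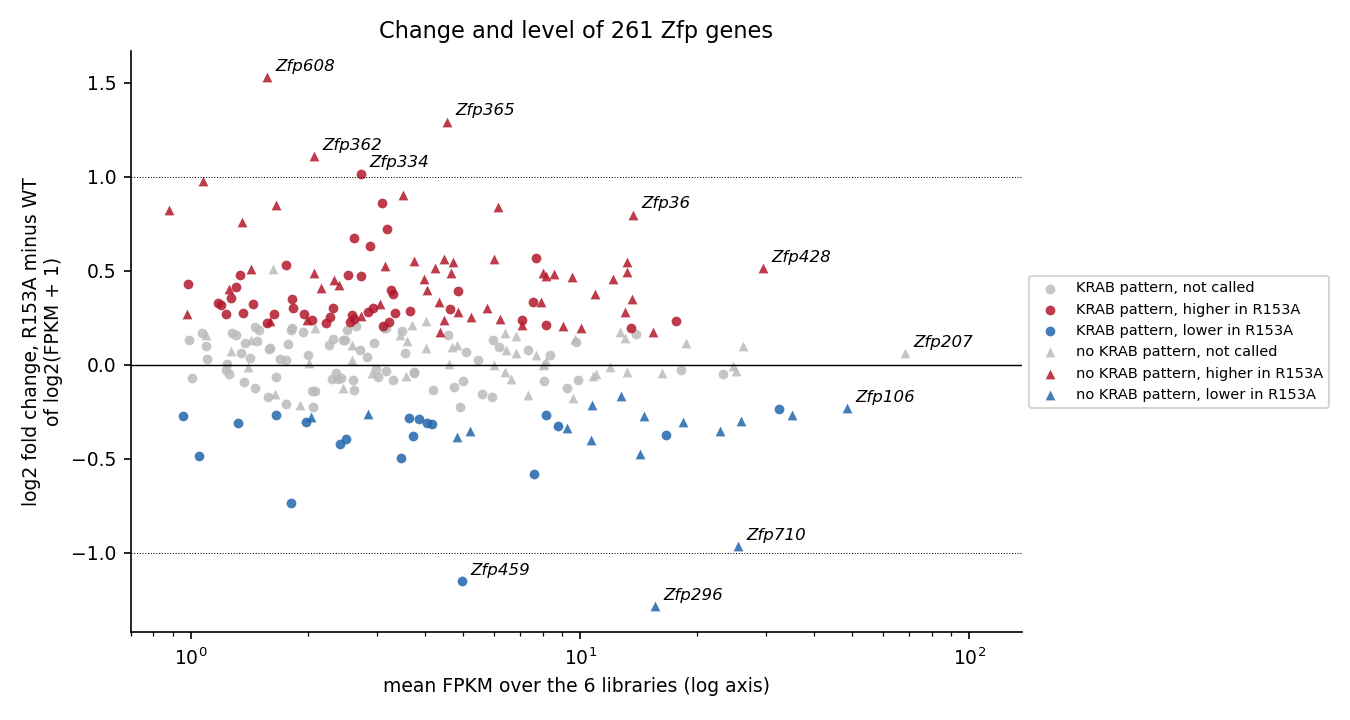
Log2 fold change, R153A minus WT of log2(FPKM + 1) (vertical axis), against mean FPKM over the 6 libraries (horizontal log axis) for 261 Zfp genes, red where called higher in R153A, blue where called lower and grey where not called, with circles for genes with a KRAB pattern and triangles for the others. Dotted lines mark 2-fold changes, passed upward by Zfp608, Zfp365, Zfp362 and Zfp334 and downward by Zfp296 and Zfp459.

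Of the members with a KRAB sequence pattern 45.5% were called, and of the other members 59.3%, with FPKM as deposited. The background is 59.8%, and a member without the pattern may still encode a KRAB domain. The reading frames of GENCODE transcripts held a median of 11 C2H2 finger matches per member, at most 36 in Zfp142. In 6 members, Zfp36, Zfp185, Zfp330, Zfp365, Zfp781 and Zfp839, no such match was found. A wide sequence pattern for the KRAB domain matched 143 members, with 45 rises, 20 falls and 78 not called, with a median log2 fold change of 0.10. Of the 118 members without the pattern 53 rose, 17 fell and 48 did not pass, with a median of 0.16. A log2 change of 0.5 or more in size was found in 6.99% of the KRAB members and in 18.6% of the others. Among the others, Zfp608, Zfp629, Zfp651 and Zfp618 had such a change and passed the FPKM rule through R153A alone. Zfp46, also without the pattern, passed the rule the same way, as did the KRAB gene Zfp607. The KRAB genes Zfp595 and Zfp28 passed through WT alone. The counts and shares of both classes include these genes, whose direction was set by the rule. A narrower pattern, the one first chosen, matched 100 members, of which 30 rose and 18 fell, and left 161, of which 68 rose and 19 fell. The classes also differed in level. KRAB members had a median of 2.71 FPKM in R153A and 2.32 FPKM in WT, against 6.38 FPKM in R153A and 5.32 FPKM in WT for the others. The classes were not tested against each other, and the part of level in their shares was not tested.

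Which direction prevailed among the KRAB calls changed with the scaling, as it did over all genes tested. Among the 143 KRAB members there were 30 rises and 30 falls under median-ratio scaling, 26 rises and 34 falls after the GC and length correction, and 14 rises and 52 falls under quantile normalization. Over all genes tested, rises and falls numbered 3764 and 3655 under median-ratio scaling and 3433 and 4236 after the correction. Under quantile normalization they numbered 3515 and 3893. The 118 other members kept more rises than falls, with 46 and 21 under median-ratio scaling, 36 and 34 after the correction and 32 and 27 under quantile normalization. KRAB members had a median GC content of 41.5% in their transcripts, against 50.7% in the other members and 50.1% over all genes tested. The part of base composition in these calls was not tested beyond that correction.

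**Figure D4:**
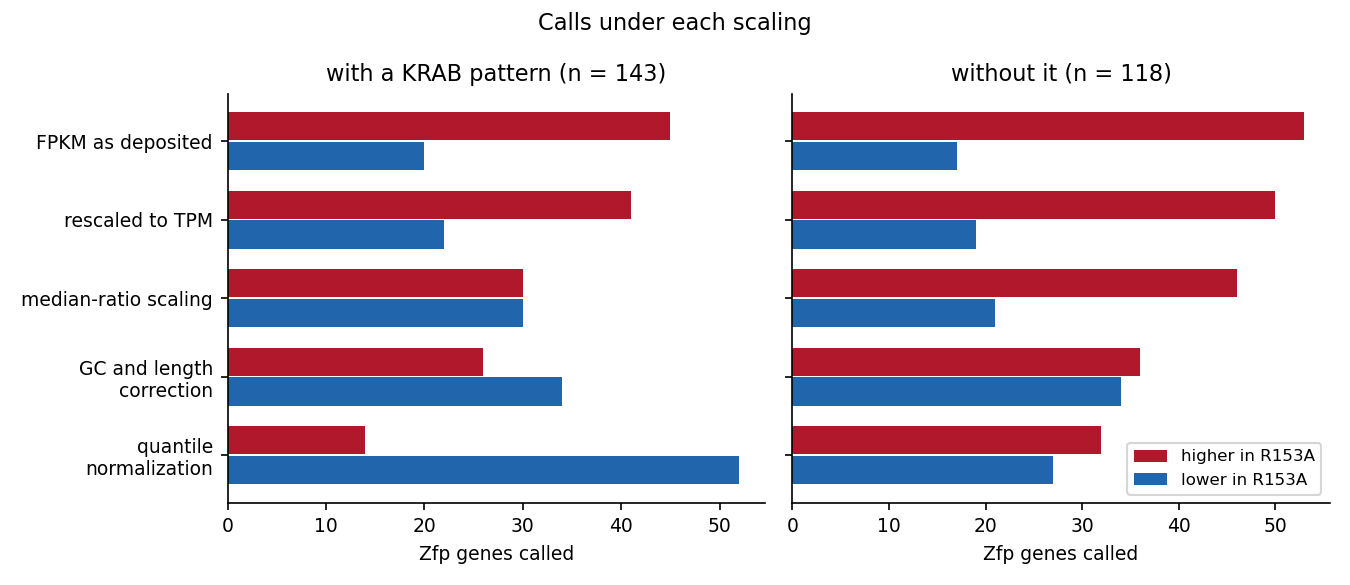
Number of Zfp genes called higher (red) and lower (blue) in R153A (horizontal axis) under 5 scalings of the same values (vertical axis), for genes with a KRAB pattern (left) and without it (right). Among KRAB genes rises outnumber falls 45 to 20 with FPKM as deposited and falls outnumber rises under quantile normalization (14 rises, 52 falls).

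The KRAB cofactors held both rises and falls. Their median R153A level was 54.0 FPKM, against 3.59 FPKM for the Zfp genes. Of 21 genes of TRIM28, its partners and related silencing complexes 7 rose, 7 fell and 7 did not pass, with a median log2 fold change of -0.02. This is 66.7% called, where the background is 59.8%, with 37.5% rises and 22.3% falls. Trim28, the corepressor that KRAB domains recruit, stood at 297, 281 and 286 FPKM in R153A, against 381, 435 and 378 FPKM in WT (log2 fold change -0.46, SE 0.0598, limma adjusted p = 5.3e-05). Its R153A values all lay below the WT values. Chd3, a NuRD remodeller, stood at 4.03, 4.28 and 3.96 FPKM in R153A, against 7.05, 7.44 and 7.41 FPKM in WT (log2 fold change -0.70, SE 0.06601, limma adjusted p = 3.9e-06), and the H3.3 chaperone gene Daxx at 25.1, 23.5 and 25.97 FPKM in R153A, against 30.9, 34.03 and 32.9 FPKM in WT (log2 fold change -0.38, SE 0.0572, limma adjusted p = 1.7e-04). Pphln1, which encodes periphilin of the HUSH silencing complex, rose most, at 14.2, 12.5 and 13.9 FPKM in R153A, against 5.28, 5.36 and 5.73 FPKM in WT (log2 fold change 1.17, SE 0.0685, limma adjusted p = 9.5e-08), a 2.48-fold higher mean. Setdb1, the methyltransferase of the pathway, stood at 27.7, 26.5 and 29.2 FPKM in R153A, against 22.8, 24.7 and 21.99 FPKM in WT (log2 fold change 0.26, SE 0.0593, limma adjusted p = 0.00332). The corepressor gene was lower and the methyltransferase gene higher in R153A, both by less than 1.5-fold in mean FPKM.

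In 6 of 7 runs of neighbouring Zfp genes, rises and falls stood side by side. On GRCm38, whose gene order alone was used because it is not the build of the table, 68 members stood in 7 runs of at least 5 members with at most 3 other protein-coding genes between neighbours. In these runs 22 rose, 11 fell and 35 did not pass, with a median log2 fold change of 0.08, and outside them 76 of 193 rose and 26 fell, with a median of 0.16. Calls made up 48.5% of the members in runs and 52.8% of those outside, where the background is 59.8%. The longest run, on chromosome 17 between Zfp677 and Zfp40, had 16 members with 6 rises and 1 fall, and its changes ran between -0.58 for Zfp229 and 0.63 for Zfp946. The run on chromosome 13 between Zfp708 and Zfp273 had 13 members, 4 rises and 3 falls, and held both Zfp459, at -1.15, and Zfp65, at 0.72. On chromosome 7 the run between Zfp84 and Zfp146 had 13 members with 2 rises and 3 falls. The run on chromosome 6 between Zfp282 and Zfp746 had 5 members, of which 4 rose and none fell, with a median of 0.41. Genes of a run resemble each other in sequence, and the sources used here do not say how reads that match several genes were counted, so separate values of close copies are uncertain.

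**Figure D5:**
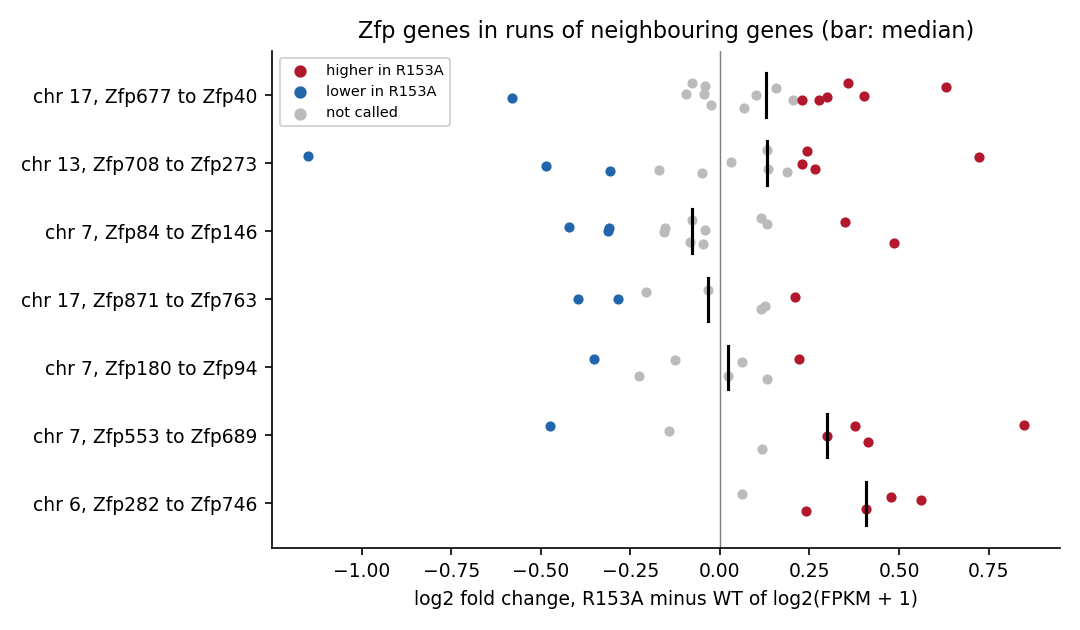
Log2 fold change, R153A minus WT of log2(FPKM + 1) (horizontal axis), of each Zfp gene in 7 runs of neighbouring genes (vertical axis), red where called higher in R153A, blue where called lower and grey where not called, with a bar at the median of the run. Every run but that on chromosome 6 holds at least 1 rise and 1 fall.

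For zinc-finger families with other names, of 36 Zbtb genes tested 9 rose and 11 fell, with a median log2 fold change of 0.01. Of 19 Zkscan and Zscan genes 9 rose and 1 fell, with a median of 0.17. The background is 37.5% rises and 22.3% falls. Neither family was tested against the Zfp genes.

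Of the 329 symbols, 68 did not pass the FPKM rule and were not among the members. Of these 58 stayed under 1 FPKM in every library, 5 of them were listed at 0 in all 6, and the highest value in any library was 1.49 FPKM. When all genes of the table were fitted with no filter on low values, 15 of the 68 were called higher and 1 lower in R153A, where the background of that fit is 20.8% higher and 10.3% lower. The lower call was Zfp831, at 0, 0 and 0.00471 FPKM in R153A, against 0.00739, 0.00987 and 0.0128 FPKM in WT. Zfp521, Zfp503 and Zfp703 were among the higher calls (limma adjusted p = 0.0449, 0.0410 and 0.00460), all under 1 FPKM. Just inside the rule lay Zfp94, Zfp46 and Zfp28, with a third-highest value of 1.03, 1.05 and 1.07 FPKM, and just outside it Zfp169, Zfp398 and Zfp438, with 0.987, 0.982 and 0.924 FPKM. Among the members 8 passed through 1 group alone and thus had to differ. These were Zfp608, Zfp629, Zfp651, Zfp618, Zfp607 and Zfp46 through R153A, and Zfp595 and Zfp28 through WT. Without them, 92 of 253 members rose and 35 fell, with a median log2 fold change of 0.12.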

How the data were processed

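Polyadenylated RNA of 3 R153A and 3 WT libraries was measured. The authors deposited 1 table of FPKM values per gene symbol and library. Per the submitters' processing notes, the tools were edgeR 3.26.8, HTSeq 0.11.2, SAMtools 1.9 and Bowtie2 2.3.4.3, and the build mm9, without their roles. The sources used here do not give the annotation, any filter, whether strand was used or which tool made the FPKM values. Whole reads could not be recovered, since at most 1.61% of low values shared one ratio between 2 libraries, so depth is unknown and no count test was run. Values of 0 may be failed estimates.

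The values were used as deposited, as log2(FPKM + 1), and fitted for the 11817 genes with 1 FPKM or more in at least 3 libraries with R 4.3.3 and limma 3.58.1 (mean-variance trend, two-sided), with Benjamini-Hochberg adjustment over all of them. Ratios of means are on the FPKM scale and are given where every library reached 0.1 FPKM. The procedure was tested on simulated data. Figures used matplotlib 3.10.9 under Python 3.11.15. The GC and length correction was a loess (span 0.5) in each library on the longest GENCODE M21 transcript of a gene, matched for 99.42% of the genes tested.

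KRAB patterns and fingers (C, 2 to 4 residues, C, 12 residues, H, 3 to 5 residues, H) were searched in the longest reading frames of GENCODE M21 transcripts in place of the protein table that had been planned. The first KRAB pattern missed known variants of the domain, and a wider one was added from sequences alone, after the data were seen. The wider pattern may miss variants too. Members' symbols were current in RefSeq for 259 genes, and 2 were matched by an older symbol. No residues are printed.

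The members and all gene lists were chosen with earlier results of these data known. Named genes were the 12 largest rises and 12 largest falls among called members whose groups were apart and whose higher group averaged 2 FPKM or more, the 10 highest members, every member of 4 role lists and up to 4 called cofactors. Setdb1 and Chd4 and members outside this rule were named after their values were seen. The calls of Setdb1 and Chd4 were not followed under the alternatives. Alternatives were pseudocounts of 0.1 and 0.5, other filters, other scalings, other variance settings, the replicate block, added symbols with a letter suffix and leaving out each library.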

Additional observations from a re-analysis of the deposited data

How the results depend on the processing

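As deposited, 98 Zfp genes rose and 37 fell. On the log2(FPKM + 1) scale 4 rose and 2 fell at least 2-fold, and the median log2 fold change was 0.13. With a filter of 5 FPKM, which leaves fewer members, there were 32 rises and 21 falls, 1 rise of at least 2-fold and a median of 0.061, and 12 KRAB genes by the first pattern and 41 others were called, against 48 and 87. Quantile normalization gave 46 rises and 79 falls, 2 and 4 of them at least 2-fold, and a median of -0.045. After the GC and length correction there were 62 rises and 68 falls, 2 rises of at least 2-fold, a median of 0.031, and a call for Zfp335 in the other direction (log2 fold change -0.16, adjusted p = 0.0464, against 0.08 with no call). The median was 0.061 under median-ratio scaling and 0.17 with a pseudocount of 0.1. Rises of at least 2-fold numbered 10 with a pseudocount of 0.1, 8 with 0.5 and 10 after rescaling to TPM. The cause of these moves was not tested. Leaving out 1 library gave 74 to 104 rises, 35 to 38 falls, 3 to 4 rises of at least 2-fold and medians of 0.10 to 0.15. Calls of the same direction under all alternatives but the 5 FPKM filter, which tests fewer members, were kept by 41 rises and 27 falls of the 135 calls. Of 61 named genes, 43 had the same call under every alternative that tested them. Deviations of libraries with the same replicate number correlated at -0.0487, -0.00946 and 0.0600, and no same-numbered pair reached 0.1. These values show no effect shared by number, and the labels do not say whether the numbers pair the libraries. With the replicate number as a block there were 94 rises and 36 falls, and Zfp217 was not called. The depth behind the values is unknown, so what it limits could not be assessed.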

Other observations

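Among the 68 Zfp symbols below the FPKM rule, the 3 with the highest log2 fold changes in the fit with no filter were chosen after their values were seen. Zfp467 stood at 0.826, 0.723 and 0.748 FPKM in R153A, against 0.0251, 0.422 and 0.217 FPKM in WT (log2 difference 0.54, SE 0.128, limma adjusted p = 0.0337). Zfp575 stood at 0.564, 0.7597 and 0.826 FPKM in R153A, against 0.302, 0.159 and 0.209 FPKM in WT (log2 difference 0.49, limma adjusted p = 0.0102). Zfp697 stood at 0.565, 0.574 and 0.4697 FPKM in R153A, against 0.111, 0.1398 and 0.132 FPKM in WT (log2 difference 0.45, limma adjusted p = 8.6e-04). All 3 genes had non-overlapping groups at levels under 1 FPKM, where the log2(FPKM + 1) scale understates a change.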
